A study of Mus musculus with 6 samples.

Results

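The 10 genes of polyamine synthesis and breakdown were followed in B16F10luc2 mouse melanoma cells under cyclic stretch. They are Odc1, Amd1, Srm, Sms, Sat1, Smox, Paox, Oaz1, Oaz2 and Azin1. The genes were chosen by their role in the pathway from a table of 14883 genes, with earlier results of these data known. All 10 were in the table and all 10 passed the filter on low counts. In 3 samples the flexible culture plate had been lengthened by 15% along both axes, 15 times per minute over 24 h, and 3 samples were static cultures on the same kind of plate. Both groups carried the same cell line, DMEM with serum and standard oxygen, and the stretch was the only labelled difference. RNA of whole cultures was sequenced, so that fewer cells expressing a gene and less RNA per cell cannot be told apart. The labels do not say whether the replicates were separate cultures, and p-values measure the spread between these samples only.

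Polyamines are small positively charged molecules that bind nucleic acids and are needed for growth and translation. Ornithine decarboxylase (ODC, gene Odc1) makes putrescine from ornithine. S-adenosylmethionine decarboxylase (Amd1) supplies the propylamine group that spermidine synthase (Srm) and spermine synthase (Sms) add in turn. Breakdown runs through acetylation by Sat1 and oxidation by Paox, or through direct oxidation of spermine by Smox. Antizymes (Oaz1, Oaz2) bind ODC, send it to the proteasome and slow polyamine uptake, and the antizyme inhibitor (Azin1), an inactive relative of ODC, binds antizyme in its place. Much of this control acts on translation and protein turnover, which RNA counts do not measure.

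Sequences known to carry that control show where the counted RNAs are read by the ribosome. Antizyme is made only when the ribosome shifts its frame by a single base at a stop codon, a shift that polyamines promote. The capitals mark this shift site, TCC followed by the stop codon TGA and a T, in 30 bases of coding sequence from the plus strand, chr10:80828280-80828309 for Oaz1 and chr9:65686257-65686286 for Oaz2 (GRCm38, GENCODE M21 transcripts). The marked letters are the same in both genes.
Oaz1: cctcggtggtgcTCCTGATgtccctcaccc
Oaz2: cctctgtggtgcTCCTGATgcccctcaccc
The annotated coding transcripts of both genes leave out 4 bases here to join the frames.

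The start regions of 3 members that differed between groups are shown. That of Amd1 holds an upstream reading frame, and those of Sms and Smox hold matches of letters only. What these features contribute to the differences was not tested. The windows span 250 bases before and 50 bases after the RefSeq start on GRCm38.p6. For Amd1 the window is chr10:40302139-40302438 on the minus strand, and the capitals mark a short upstream reading frame of 6 codons and a stop at chr10:40302155-40302175, which in mammals stalls ribosomes when polyamines are high. For Sms it is chrX:157492238-157492537 on the minus strand, the upstream one of its 2 starts, and the capitals mark CACGTG, the E-box letters bound by MYC and MAX, 196 bases before the start. For Smox it is chr2:131491612-131491911 on the plus strand, and the capitals mark a match to the antioxidant response element TGACNNNGC, 193 bases before the start.
Amd1: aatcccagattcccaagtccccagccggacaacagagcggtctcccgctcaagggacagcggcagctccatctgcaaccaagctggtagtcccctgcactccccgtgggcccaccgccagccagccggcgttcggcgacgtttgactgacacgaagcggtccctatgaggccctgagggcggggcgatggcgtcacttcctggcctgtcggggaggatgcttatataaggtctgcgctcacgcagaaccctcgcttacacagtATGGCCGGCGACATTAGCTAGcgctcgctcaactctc
Sms: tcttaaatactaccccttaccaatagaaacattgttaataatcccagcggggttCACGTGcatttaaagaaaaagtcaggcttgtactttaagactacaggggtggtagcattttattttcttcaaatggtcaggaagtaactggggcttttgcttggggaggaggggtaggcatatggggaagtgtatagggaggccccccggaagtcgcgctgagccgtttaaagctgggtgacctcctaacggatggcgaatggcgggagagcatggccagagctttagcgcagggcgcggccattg
Smox: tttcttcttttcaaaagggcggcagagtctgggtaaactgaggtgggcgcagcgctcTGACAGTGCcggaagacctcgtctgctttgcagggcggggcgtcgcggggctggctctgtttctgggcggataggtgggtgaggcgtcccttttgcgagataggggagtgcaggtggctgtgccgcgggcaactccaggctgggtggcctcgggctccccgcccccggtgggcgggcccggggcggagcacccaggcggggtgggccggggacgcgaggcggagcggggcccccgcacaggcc
The table of start regions matched 8 of the 10 members, with 10 windows between them. Searched on both strands, CACGTG was in 1 of the 10 windows and in 7.15% of all 32851 mouse windows of this length. TGACNNNGC was in 2 of the 10, those of Smox and Oaz1, and in 12.4% of all windows, and TGATGNAAT, the ATF4 response element, was in none of the 10 and in 0.965% of all. TATAAA was in 1, that of Oaz1, and in 13.6% of all. These are matches of letters, not measured binding. Sites outside the windows were not searched in any member, Odc1 included. No start region is shown for Srm and Azin1.

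Estimated counts per library ran from 20494344 to 36351400 in stretched cells and from 19469286 to 30042222 in static cells. The cultures carried the label's lineage: all 7 melanocytic markers were in the table and summed to 20300 to 20810 CPM (counts per 1000000, scaled by library) in stretched and 22230 to 23930 CPM in static libraries. Fibroblast, leukocyte, endothelial and keratinocyte markers summed to at most 8.95 CPM each, and Ptprc, Cd3e, Cdh5, Krt5, Krt14 and Epcam were not among the genes of the table. Static replicate 2 lay farthest from its group, with an SD of log2 CPM about the group mean of 0.165 over all genes, against 0.111 to 0.147 for the other libraries. Results that turn on it are given with and without it.

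At the level of RNA, genes of spermidine and spermine synthesis were called higher under stretch and genes that begin breakdown were called lower. The gene of the first step, Odc1, was not called. Amd1, Srm and Sms rose by 1.14- to 1.31-fold, and Sat1, Smox and Oaz2 fell by 1.19- to 1.28-fold. Odc1, Paox, Oaz1 and Azin1 did not pass the test (edgeR's quasi-likelihood test, Benjamini-Hochberg adjusted over 12377 genes, called under 0.05). These 6 calls of 10 stand beside 50.9% of all tested genes called, 24.9% higher and 25.9% lower, so that being called sets the members little apart from other genes. The CPM of the groups did not overlap for 6 of the 10 members, 3 in each direction, and for 58.5% of tested genes, 29% with stretch above static and 29.4% with stretch below. The median size of the change, 0.22 on the log2 scale, was also near that of all tested genes, 0.18.

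**Figure D1:**
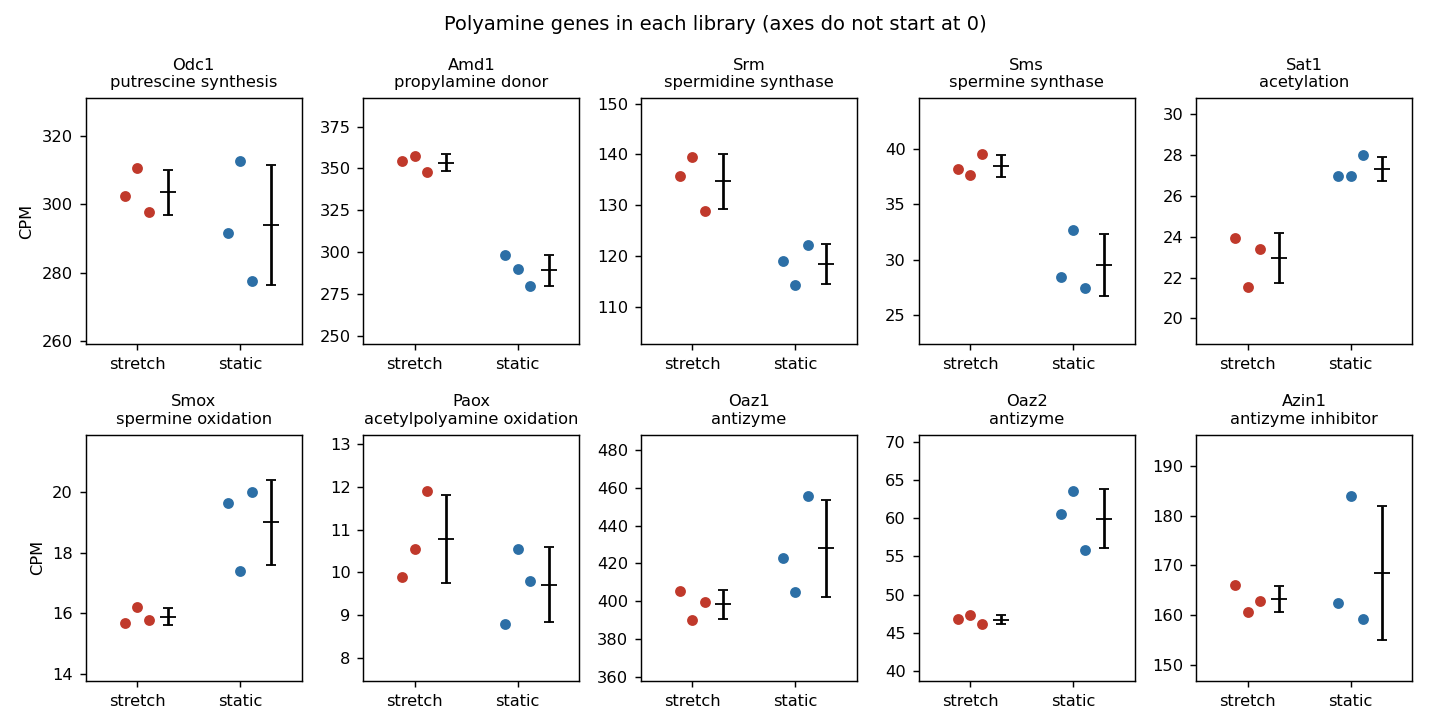
CPM of each polyamine gene in each library, stretched (red, left) and static (blue, right), with the mean and SD of 3 libraries beside the points. Axes do not start at 0. The groups do not overlap for Amd1, Srm, Sms, Sat1, Smox and Oaz2, and static replicate 2 is the middle blue point of each panel.

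Odc1 (Entrez Gene 18263; chromosome 12, 17544808 to 17551502 in GRCm38.p6), the entry of synthesis, was read at 302, 310 and 298 CPM in stretched replicates 1, 2 and 3, against 292, 313 and 278 CPM in static replicates 1, 2 and 3. The highest and the lowest of the 6 values were both static. Its log2 fold change was 0.05, with a 95% interval of -0.04 to 0.14 (adjusted p = 0.37), so that the smallest called rise, 0.18 for Srm, lay outside the interval. Odc1 passed under 2 of 18 alternatives. Without static replicate 2 the change was 0.09 (adjusted p = 0.0381), and with scaling by library size alone it was 0.11 (adjusted p = 0.0263). Without static replicate 3 it was 0.0056 and did not pass (adjusted p = 0.916).

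Amd1 (Entrez Gene 11702; chromosome 10, 40287458 to 40302188), whose upstream reading frame is shown above, had 355, 358 and 348 CPM in stretched libraries, against 298, 290 and 280 CPM in static libraries. Every stretched library lay above every static library, and the static libraries spread over a wider range than the stretched ones. Amd1 rose by 0.29 on the log2 scale (SE 0.036, adjusted p = 9.482e-06), or 1.22-fold. Its near copy Amd2 held 4.66 to 8.92 CPM in stretched and 4.96 to 8.14 CPM in static libraries. With the counts of Amd2 added, a choice made after seeing the data, the log2 fold change was 0.28.

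Srm (Entrez Gene 20810; chromosome 4, 148591513 to 148594619), which makes spermidine, averaged 134.7 ± 5.47 CPM in stretched cells and 118.5 ± 3.99 CPM in static cells (SD, n = 3 each). Its stretched values of 136, 140 and 129 CPM all exceeded its static values of 119, 114 and 122 CPM. The log2 fold change of 0.18 (SE 0.041, adjusted p = 0.00162) was the smallest among the called members. With an offset for GC content and length it became 0.29 (adjusted p = 4.232e-05), and that of Amd1 became smaller, 0.20.

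Sms (Entrez Gene 20603; chromosome X, 157443851 to 157492287), which makes spermine and carries the E-box match above, had the largest change of the 10. It stood at 38.2, 37.7 and 39.6 CPM in stretched libraries, against 28.4, 32.7 and 27.4 CPM in static libraries. Static replicate 2 was nearest to the stretched group and still below it. Sms rose by 0.39 on the log2 scale (SE 0.060, adjusted p = 7.568e-05), or 1.31-fold, and 0.46 without static replicate 2. With the offset for GC content and length its change, 0.3285, was no longer the largest, since Sat1 was at -0.332. When edgeR's glmTreat asked for a change beyond 1.2-fold, Sms passed (adjusted p = 0.0472) and the other 9 members did not. That test called 12.9% of all genes, 5.49% higher and 7.38% lower.

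**Figure D2:**
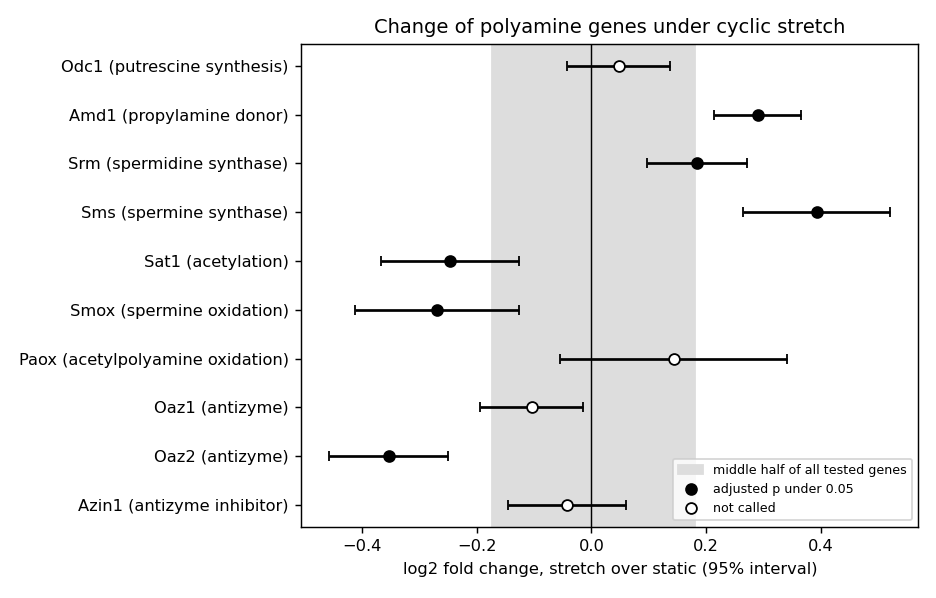
Log2 fold change, stretch over static, of the 10 genes with 95% intervals. Filled points passed at an adjusted p under 0.05, and the grey band spans the quartiles of all tested genes, -0.17 to 0.18. Amd1, Srm and Sms lie to the right and Sat1, Smox and Oaz2 to the left of 0, while the intervals of Odc1, Paox and Azin1 include 0.

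On the side of breakdown, Sat1 (Entrez Gene 20229; chromosome X, 155213126 to 155216449), the acetyltransferase that marks spermidine and spermine for export or oxidation, had 23.9, 21.6 and 23.4 CPM in stretched libraries, against 27.0, 27.0 and 28.0 CPM in static libraries. The static values lay close together and above all stretched values. For Sat1 the log2 fold change was -0.25 (SE 0.056, adjusted p = 0.00199), or 1.19-fold lower.

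Smox (Entrez Gene 228608; chromosome 2, 131491858 to 131525183), which oxidises spermine back to spermidine and yields hydrogen peroxide, had 15.7, 16.2 and 15.8 CPM under stretch, against 19.6, 17.4 and 20.0 CPM in static cells. The stretched values were close together and the static values were not, with static replicate 2 nearest to the stretched group. Smox was 1.21-fold lower, -0.27 on the log2 scale (SE 0.067, adjusted p = 0.0036). Another gene, Gm30679, overlaps Smox, and the split of reads between them is uncertain, since strand is not given in the sources at hand.

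Paox (Entrez Gene 212503; chromosome 7, 140115735 to 140134334), the peroxisomal oxidase of acetylated polyamines, was the least abundant member, at 9.89, 10.5 and 11.9 CPM in stretched and 8.79, 10.5 and 9.80 CPM in static libraries. The groups overlapped. Its log2 fold change of 0.14 had an interval of -0.05 to 0.34 (adjusted p = 0.214), so a rise of the size seen for Amd1 was within its error. The span of Paox overlaps that of Echs1, whose own log2 fold change was -0.16, and reads of the 2 genes cannot be told apart where they share sequence.

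Among the regulators of ODC protein, Oaz2 (Entrez Gene 18247; chromosome 9, 65676548 to 65690300) fell and Oaz1 did not pass the test. Oaz2 had 46.9, 47.3 and 46.1 CPM in stretched libraries, against 60.5, 63.5 and 55.8 CPM in static libraries. The stretched values were close together and all below the static ones. This was the largest fall of the 10, -0.35 on the log2 scale (SE 0.049, adjusted p = 2.899e-05) or 1.28-fold. With the offset for GC content and length Oaz2 was at -0.29, Sat1 lower at -0.33 and Smox at -0.20.

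Oaz1 (Entrez Gene 18245; chromosome 10, 80826656 to 80829290), the main and most abundant antizyme, had 406, 390 and 400 CPM under stretch, against 423, 405 and 456 CPM in static cells. The highest stretched value and the lowest static value, that of replicate 2, nearly coincided. Its log2 fold change was -0.10, with an interval of -0.19 to -0.01, and the adjusted p of 0.0504 lay at the threshold. It passed without static replicate 2 (-0.14, adjusted p = 0.00265), was -0.06 without static replicate 3 (adjusted p = 0.178), and shrank to -0.02 with the offset for GC content and length (adjusted p = 0.687). A transcribed pseudogene, Oaz1-ps, took 177, 206 and 203 CPM in stretched and 233, 245 and 194 CPM in static libraries, so the split of reads between it and Oaz1 is uncertain. With the counts of both added, a choice made after seeing the data, the log2 fold change was -0.13 and passed (adjusted p = 0.0029).

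Azin1 (Entrez Gene 54375; chromosome 15, 38487430 to 38519294), the antizyme inhibitor, had 166, 161 and 163 CPM under stretch, against 162, 184 and 159 CPM in static cells. Only static replicate 2 stood away from the other values. Azin1 had a log2 fold change of -0.04 (interval -0.15 to 0.06, adjusted p = 0.484). It turned to 0.02 without that library (adjusted p = 0.628) and with library size scaling (adjusted p = 0.746), and was -0.17 with the offset for GC content and length, where it passed (adjusted p = 0.0102).

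Ratios of counts of members within a library do not depend on how libraries are scaled, and are given as a description without a test. They can still change with a correction for GC content and length, which acts on each gene. With that offset the log2 fold change of Amd1 was 0.20 instead of 0.29, and of Odc1 0.10 instead of 0.05. That of Azin1 was -0.17 instead of -0.04. Amd1 stood to Odc1 as 1.17, 1.15 and 1.17 in stretched libraries, against 1.02, 0.927 and 1.01 in static libraries. The mean ratio was 18.2% higher under stretch, with no overlap. The ratio of Sat1 to Amd1, acetylation against supply of propylamine groups, was 0.0675, 0.0603 and 0.0673 in stretched libraries, against 0.0905, 0.0932 and 0.1001 in static libraries. The difference in means, stretched against static, was -31.3%, the largest shift among the 7 ratios computed. This ratio divides a member called lower by a member called higher, so its shift follows from those calls. For Oaz2 to Oaz1 the ratio averaged 0.117 ± 0.0033 in stretched and 0.141 ± 0.0173 in static cells (SD, n = 3 each), and the lowest static ratio, 0.1224, lay just above the highest stretched ratio, 0.1211. Azin1 to Odc1 averaged 0.538 ± 0.0176 in stretched and 0.573 ± 0.0158 in static cells, and Sat1 to Odc1 averaged 0.0757 ± 0.00547 in stretched and 0.0932 ± 0.00726 in static cells, both without overlap. How often ratios of other gene pairs separate the groups was not computed, and 58.5% of single tested genes did so. The ratios with Oaz1 leave out the counts of Oaz1-ps, so whether their groups overlap rests on an uncertain split of reads. In the other 2 ratios the groups overlapped. Sms to Srm ran from 0.27 to 0.307 in stretched and from 0.224 to 0.286 in static libraries, and Oaz1 to Odc1 from 1.26 to 1.34 in stretched and from 1.30 to 1.64 in static libraries.

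Levels can be compared between genes only per length, here as CPM per kilobase of the longest coding transcript in GENCODE M21, which is approximate where shorter transcripts are in use. By this measure Oaz1 was highest, at 372 ± 7.21 in stretched and 399.7 ± 24.0 in static cells. Odc1 followed at 137 ± 2.94 and 133 ± 7.96 in the same order of groups, then Amd1 at 110.3 ± 1.57 and 90.2 ± 2.88. Srm at 100.7 ± 4.09 and 88.5 ± 2.98 could not be separated from Amd1 in static cells, where their ranges overlap, while in stretched cells Amd1 was above Srm in every library. Azin1 stood at 33.5 ± 0.545 in stretched and 34.6 ± 2.77 in static cells, and Oaz2 at 25.4 ± 0.325 in stretched and 32.5 ± 2.12 in static cells, so these neighbours overlap in static cells only. Sat1 came next at 19.8 ± 1.07 and 23.5 ± 0.50.

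Sms and Smox, which make and remove spermine, could be put in order in stretched cells only. Per kilobase, Sms averaged 10.3 ± 0.263 and Smox 6.91 ± 0.124 in stretched cells, with no overlap between the genes. In static cells Sms averaged 7.93 ± 0.753 and Smox 8.27 ± 0.612, and their ranges overlapped. Paox was lowest in both groups, at 2.31 ± 0.219 in stretched and 2.09 ± 0.188 in static cells.

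Genes around the pathway, in 7 lists by role, went both ways. Of 55 listed genes 42 were in the table and 39 were tested, and 10 rose and 13 fell, beside 24.9% and 25.9% of all genes. The 10 include Slc7a3, which passed the filter on low counts only through its stretched libraries. The median log2 fold change of the 39 was 0.02, against 0.00 for all tested genes.

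**Figure D3:**
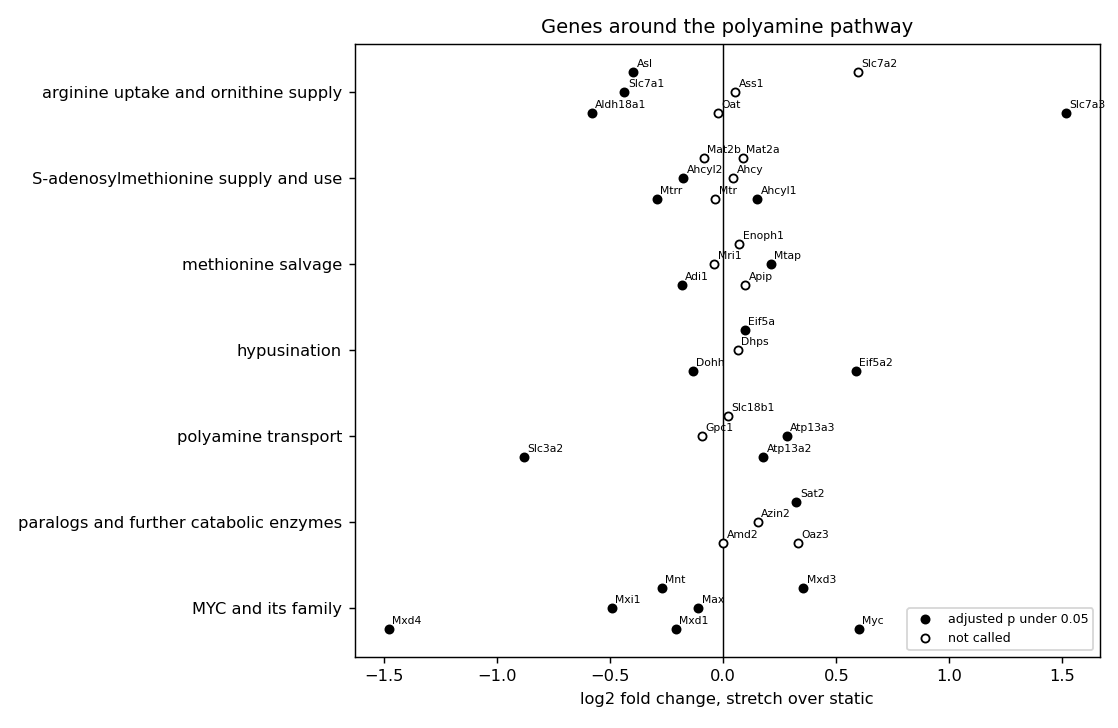
Log2 fold change, stretch over static, of each tested gene of the lists around the pathway. Filled points passed at an adjusted p under 0.05. All 7 tested genes of the MYC family are filled, and Mxd4 lies farthest left at -1.48. Slc7a3 lies farthest right at 1.51, but passed the filter on low counts only through its stretched libraries.

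Of the genes that supply arginine and ornithine, 3 of 7 tested fell and 1 rose (median -0.02), beside 25.9% lower and 24.9% higher among all tested genes. Aldh18a1, which makes the glutamate-derived precursor of ornithine and proline, averaged 157.5 ± 6.03 CPM in stretched and 235.5 ± 4.67 CPM in static cells, a log2 fold change of -0.58 (adjusted p = 1.856e-08). Slc7a1, the main carrier of arginine and ornithine, fell to 395 ± 5.67 CPM in stretched cells, against 534 ± 7.99 CPM in static cells. Asl, which releases arginine from argininosuccinate, fell 1.32-fold. Slc7a3, another arginine carrier, was called higher but was at 0.656 ± 0.122 CPM in stretched and 0.218 ± 0.0743 CPM in static cells. It had 11 to 25 counts in stretched and 3 to 9 in static libraries. It passed the filter on low counts only through its stretched libraries, so no weight is put on its call. Arginase genes were barely read: Arg2 had 4 to 7 counts in stretched and 1 to 3 in static libraries and was not tested, and Arg1 was not among the genes of the table.

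The supply of S-adenosylmethionine showed smaller differences (median -0.03). Of 7 tested genes 1 was higher and 2 were lower, beside 24.9% and 25.9% of all tested genes. Mat2a, the synthetase of this cofactor, was at 497 ± 11.5 CPM in stretched and 468 ± 21.4 CPM in static cells and did not pass (adjusted p = 0.0786). Mtrr, which keeps methionine synthase active, fell 1.23-fold, Ahcyl2, a relative of adenosylhomocysteinase, fell 1.13-fold, and Ahcyl1, a further relative, rose 1.11-fold. Srm and Sms each release methylthioadenosine, and Mtap, which returns it to the methionine salvage route, rose to 268.6 ± 4.56 CPM in stretched cells, against 232.6 ± 14.1 CPM in static cells (1.16-fold, adjusted p = 0.000801). Adi1, a later enzyme of that route, fell 1.14-fold, and the other 3 of its 5 genes did not pass (median of the list 0.07). Over all tested genes 50.9% were called.

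Spermidine is also the source of hypusine, an amino acid found only in eIF5A. Of 4 genes 2 rose and 1 fell (median 0.08), beside 24.9% and 25.9% of all tested genes. Eif5a2, the scarcer form of the factor, rose by 0.59 on the log2 scale, at 17.2 ± 0.386 CPM in stretched and 11.5 ± 0.744 CPM in static cells (adjusted p = 7.351e-06). Eif5a, the common form, rose 1.07-fold from a high level, with 1090 ± 20.3 CPM in stretched and 1020 ± 33.0 CPM in static cells. Dohh, which completes hypusine, fell 1.10-fold.

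Of 5 tested genes of polyamine transport 2 rose and 1 fell (median 0.02), beside 24.9% and 25.9% of all tested genes. Atp13a3, a polyamine transporter of the cell surface and endosomes, rose 1.22-fold to 257.7 ± 8.42 CPM in stretched cells, against 212 ± 4.16 CPM in static cells, and Atp13a2, the lysosomal polyamine exporter, rose 1.13-fold. Slc3a2, a subunit of amino acid carriers that has also been tied to polyamine export in human colon cells, fell 1.84-fold. Among paralogs and further enzymes, 1 of 4 tested genes passed (median 0.24), beside 50.9% of all tested genes. Sat2, a relative of Sat1 that acts on thialysine, rose 1.25-fold with few reads. It had 4.92 ± 0.265 CPM in stretched and 3.96 ± 0.115 CPM in static cells.

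Odc1 is a textbook target of MYC, which pairs with MAX and is opposed by MXD and MNT proteins. All 7 tested genes of this family passed, 2 higher and 5 lower (median -0.21), beside 50.9% of all tested genes called, 24.9% higher and 25.9% lower. Myc stood at 83.9, 77.3 and 81.6 CPM in stretched libraries, against 53.6, 49.1 and 57.2 CPM in static libraries, 1.51-fold higher. Mxd3 rose 1.28-fold, while Mxd4 fell 2.79-fold, Mxi1 1.41-fold, Mnt 1.21-fold and Mxd1 1.16-fold. Max, the partner of MYC, also fell, with 76.3 ± 1.01 CPM in stretched and 82.3 ± 1.61 CPM in static cells (1.08-fold, adjusted p = 0.0198), and is named here after its values were seen. Odc1 itself, with 1.03-fold, did not pass beside them, and what MYC contributes to any member was not tested.

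**Figure D4:**
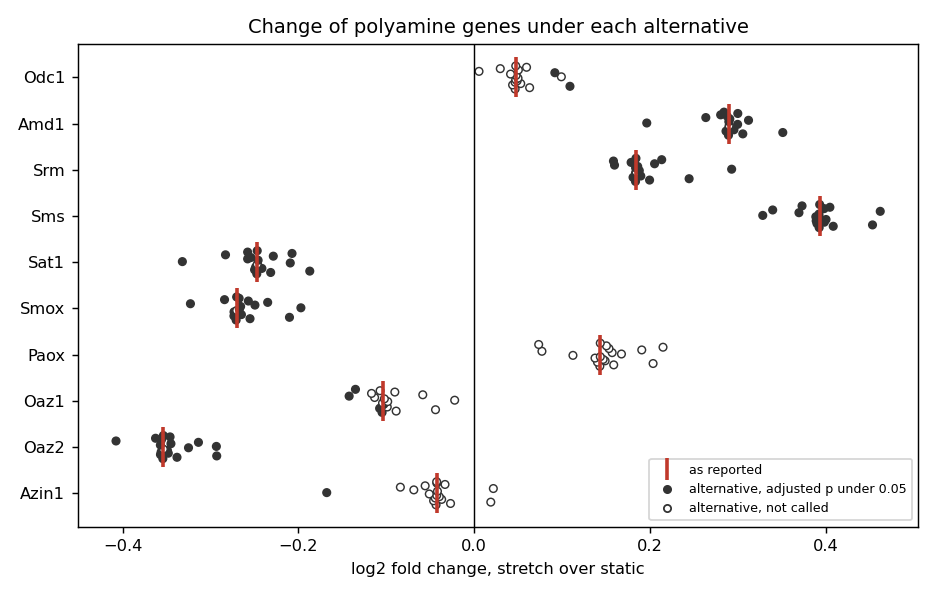
Log2 fold change, stretch over static, of the 10 genes under each alternative way of processing (points, filled where the adjusted p was under 0.05) and as reported (red bar). Sms stays between 0.33 and 0.46 and is filled throughout, and Azin1 has points on both sides of 0.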

How the data were processed

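RNA of 3 stretched and 3 static B16F10luc2 samples was used, grouped by the condition in the labels. The authors deposited unscaled estimated counts per gene, in whole numbers. The submitters' processing notes name Salmon 1.4.0 and 2 names of a build, GRCm38 and mm10, with no role. Index, strand, poly(A) selection and the step from transcripts to genes: not given in the sources used here. Each row summed to at least 10 counts. All 6 columns matched a sample.

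Symbols for 14875 of 14883 Entrez Gene numbers came from NCBI's RefSeq annotation (GRCm38.p6). Rounded counts were filtered by edgeR 4.0.16 (R 4.3.3; filterByExpr, minimum count 10), which left 12377 genes, scaled by TMM and tested, two-sided, by its quasi-likelihood test without covariates (4 residual degrees of freedom, biological coefficient of variation 3.6%). CPM use TMM-scaled library sizes, except summed markers. The smallest p of an exact test of 3 against 3 is 0.1, and the calls use spread shared across genes. The procedure was tested on simulated counts with the same spread for every gene and few changed genes. These data differ in both, so that test does not vouch for the calls here. No 2 libraries held identical counts.

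Members, lists and the rule for named genes were chosen with earlier results of these data known. All members are named, with the called genes of each list (at most 4 in each direction, by p). Alternatives were RLE, upper quartile and library size scaling, no filter, a filter of 5 CPM in 3 libraries, DESeq2 1.42.0, limma-voom (limma 3.58.1), glmTreat against 1.2-fold, thinning to 19469286 counts, a GC and length offset (natural splines with 5 degrees of freedom, values known for 98% of tested genes), the replicate number as a block and each library left out. Adding the counts of Amd2 to Amd1 and of Oaz1-ps to Oaz1 was chosen after seeing the data.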

Additional observations from a re-analysis of the deposited data

How the results depend on the processing

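The 3 higher and 3 lower members kept direction and passed under each alternative other than glmTreat against 1.2-fold, which called 1 member higher and 0 lower (Sms alone) with no further member at an adjusted p under 0.05. There, adjusted p was 0.373 for Amd1, 0.0784 for Oaz2, and 0.725 to 1 for Srm, Sat1 and Smox. glmTreat called 679 genes higher and 913 lower over the whole table, and 3 higher and 6 lower in the wider lists. With each library left out in turn, 3 to 4 members were higher and 3 to 4 lower, 2478 to 3075 genes were higher and 2675 to 3256 lower among all tested, and in the wider lists 8 to 11 were higher and 11 to 14 lower.

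Oaz1 passed under 6 of 18 alternatives, with adjusted p from 0.00265 to 1 over all. Azin1 turned to 0.019 with library size scaling and to 0.0219 without static replicate 2, the upper end of a range from -0.0839 with 1 library left out. Library size scaling moved the median log2 fold change of all genes from 0.0038 to 0.0636 and the higher genes' part of all calls from 49% to 63.2%, and Odc1 at 0.1091 exceeded that shift by little. The causes were not tested.

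Samples with the same replicate number did not deviate alike from their group means (correlations of deviations -0.012, 0.0050 and -0.077). Whether they were handled in pairs is not given in the labels, and these correlations cannot show it. With the replicate block 3 members were higher and 3 lower, with 2924 and 3043 genes over the table. For Paox and Smox, the members with the fewest counts, 198 to 596 counts per library limit the precision.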

Other observations

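By a rule of smallest distance in log2 CPM over the 6 libraries, each centred on its static mean, the genes with the pattern nearest to Odc1 were Gpalpp1, Tmem167 and Diablo (distances 0.0325, 0.0368 and 0.0419). They were chosen for their likeness to Odc1, so traits they share with it are no separate result. None of the 3 passed the test. Gpalpp1 had 55.6, 55.8 and 53.6 CPM in stretched libraries, against 53.2, 57.2 and 50.6 CPM in static libraries, and like Odc1 its highest and lowest values were static.

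The genes nearest to Sat1 by the same rule were Chic2, Tor2a and Tubg2 (distances 0.0252, 0.0556 and 0.0633). That all 3 fell follows from this choice. Chic2 had 26.7, 24.4 and 26.6 CPM in stretched libraries, against 30.2, 30.6 and 31.7 CPM in static libraries. With 6 libraries and 2 groups many genes share such a pattern, so nearness is a description of these libraries only.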
